A study of Mus musculus with 3 samples.

Results

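The genes described here were 9 genes known from epithelial cells: Upk1b, Upk3bl, Wfdc2, Cyp2f2, Lypd2, Ly6d, Serpinb11, Cyp4a12a and Anxa1. They were picked as leading genes of epithelial-like cells in cardiac bodies (CB), so their levels over CB cells chose them, and what follows for CB is a description without a test. They made up 9 of the 27886 genes listed in any of the 3 count tables. The CB table listed all 9, the cardiac precursor cell culture (CPCC) table listed 5 and the mouse embryonic stem cell (mESC) table listed 4. A table held only genes that reached at least 1 count in a cell, so a gene that was not listed has no value there.

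The cells came from male F1 mESC of a C57BL/6J mother and a CAST/EiJ father, and every culture shared this genotype. The mESC were grown in medium with Lif and inhibitors of Mek and Gsk3, and both other cultures began as hanging-drop aggregates that were moved to medium with ascorbic acid. The CPCC were then dissociated and passaged in medium with EGF and Fgf2, and the CB, which stayed in ascorbic acid, were picked by pipette when beating. Single cells were captured in the small chambers of Fluidigm C1 chips, and full-length cDNA of polyadenylated RNA was sequenced. The labels gave 1 sample per culture, and the mESC sample is titled as a triplicate. There were 215 mESC, 175 CPCC and 232 CB cells in 3, 2 and 3 sequencing pools. The lines were clones from several blastocysts, but no label ties a pool to a clone or a dish, so pools are shown side by side and are not replicates. No cell name was shared between the tables.

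The median cell held 1528316 counts in mESC, 1437414 in CPCC and 1397869 in CB, and the medians of single pools lay between 804581 in CB pool 1 and 1855334 in mESC pool 3. The study sorted CB cells into cardiac fibroblasts, cardiomyocytes, endocardial and pericardial cells, so by its account only a part were cardiomyocytes. Of 12 cardiomyocyte genes, none reached 10 counts in most CB cells, and the most widespread, the thin-filament gene Tnnt2, did so in 12.7% of the 181 CB cells with 100000 or more counts outside the group described below.

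Uroplakins are membrane proteins that form the rigid plaques on the luminal face of the bladder lining. Upk1b is a tetraspanin and partners Upk3 proteins, and both kinds are also made by other epithelia and by mesothelium. Club cells of the airway, a secretory cell type, carry Cyp2f2, a cytochrome P450 that oxidizes inhaled compounds, and are defined by secretoglobins such as Scgb1a1. Wfdc2 is a secreted protease inhibitor of many glandular epithelia. Ly6d and Lypd2 belong to the Ly6 family of small lipid-anchored surface proteins, Serpinb11 is an intracellular serpin, Cyp4a12a is a fatty acid hydroxylase known from male liver and kidney, and Anxa1 is a calcium-dependent membrane-binding annexin made by many epithelia, fibroblasts and leukocytes.

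The promoters of 4 of the genes are shown because the genes differed in how far they were confined to CB. The sequences are from RefSeq on GRCm38.p6 and run from 250 bases before to 50 bases after a gene's annotated start, on the gene's own strand. Capitals mark CG pairs and, in Anxa1, the TATA box letters TATAAA. RefSeq promoters were found for 5 of the 9 genes, Upk3bl, Wfdc2, Cyp2f2, Serpinb11 and Anxa1.
Wfdc2, chr2:164562465-164562764, plus strand: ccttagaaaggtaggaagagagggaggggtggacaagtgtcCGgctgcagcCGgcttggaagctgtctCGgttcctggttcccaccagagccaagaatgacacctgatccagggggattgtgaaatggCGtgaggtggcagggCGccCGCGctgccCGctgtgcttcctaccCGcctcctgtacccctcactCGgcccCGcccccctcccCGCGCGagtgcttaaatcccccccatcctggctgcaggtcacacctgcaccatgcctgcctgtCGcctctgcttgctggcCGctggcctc
Upk3bl, chr5:136057017-136057316, plus strand: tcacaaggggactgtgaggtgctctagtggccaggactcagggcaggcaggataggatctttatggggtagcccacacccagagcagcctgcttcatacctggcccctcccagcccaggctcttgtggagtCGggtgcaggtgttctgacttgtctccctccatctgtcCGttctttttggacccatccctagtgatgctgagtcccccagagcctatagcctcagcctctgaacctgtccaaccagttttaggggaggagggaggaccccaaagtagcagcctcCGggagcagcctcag
Cyp2f2, chr7:27119705-27120004, plus strand: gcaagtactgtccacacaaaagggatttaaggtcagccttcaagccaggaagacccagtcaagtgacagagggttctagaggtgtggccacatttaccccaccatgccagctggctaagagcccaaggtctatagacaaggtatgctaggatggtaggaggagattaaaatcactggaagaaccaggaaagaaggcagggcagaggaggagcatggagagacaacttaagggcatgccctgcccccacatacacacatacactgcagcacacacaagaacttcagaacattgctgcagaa
Anxa1, chr19:20390622-20390921, minus strand: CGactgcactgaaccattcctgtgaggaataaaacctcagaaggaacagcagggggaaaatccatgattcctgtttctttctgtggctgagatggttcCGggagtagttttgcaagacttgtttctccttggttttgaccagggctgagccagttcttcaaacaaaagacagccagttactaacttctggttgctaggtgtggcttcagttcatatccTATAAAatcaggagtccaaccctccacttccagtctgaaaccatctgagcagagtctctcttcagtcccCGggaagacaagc
Wfdc2, which most mESC carried, had the promoter with the most CG pairs, 16, and 66.5% of all 27025 promoters had fewer. Upk3bl and Anxa1 had 3 each, and Cyp2f2 and Serpinb11, neither of which was listed in mESC or CPCC, had 0. The median promoter had 7. The letters TATAAA stood at position -32 from the start in Anxa1 and in no other of the 5 promoters, on either strand, against 14.2% of all promoters. None of the 5 held AACCGGTT, TGTTTAC or AGATAA on either strand, letters that stand for Grhl, Fox and Gata factors and that occurred in 0.152%, 3.55% and 11.4% of all promoters. These are matches of letters and not tests of a factor. All 5 RefSeq starts lay inside the genes as GENCODE draws them, so they are not the outermost starts of that annotation, and the TATAAA position is counted from the RefSeq start.

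On GRCm38 with GENCODE M21, the 9 protein-coding genes lay on 8 chromosomes. Upk1b was at chr16:38773184-38800328 on the minus strand and Upk3bl at chr5:136054492-136064326 on the plus strand. Wfdc2 was at chr2:164562413-164568510, Cyp2f2 at chr7:27119909-27133660, Serpinb11 at chr1:107361198-107380475 and Cyp4a12a at chr4:115299046-115332815, all on the plus strand. Lypd2 at chr15:74732247-74734329 and Ly6d at chr15:74762056-74763620 were the only neighbours, both on the minus strand with 27726 bases between them. Anxa1 was at chr19:20373428-20390944 on the minus strand. Cyp2f2 overlapped the antisense gene Gm15883 and Anxa1 the lincRNA 1500015L24Rik, each on the other strand, and since the use of strand in counting was not stated, reads of such partners cannot be told apart.

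In CB, the summed level ranged from 47.0 to 950 CPM across the 9 genes, where CPM are counts scaled to a total of 1000000 per sample, pool or cell. Counting intervals are exact 95% intervals and cover counting error only. Wfdc2 had 950 CPM (946 to 953), Cyp2f2 855 CPM (852 to 858), Anxa1 851 CPM (848 to 854), Upk1b 659 CPM (656 to 662) and Upk3bl 419 CPM (417 to 421). Serpinb11 at 164 CPM, Lypd2 at 135 CPM, Ly6d at 49.7 CPM and Cyp4a12a at 47.0 CPM were lower. Per kilobase of exon, Wfdc2 led with 833 CPM, followed by Cyp2f2 with 422, Upk3bl with 322, Upk1b with 316 and Anxa1 with 292. Lypd2 had 198 CPM per kilobase, Serpinb11 75.2, Ly6d 66.9 and Cyp4a12a 19.4. The neighbours Upk3bl, Upk1b and Anxa1 in this order differed by less than their levels moved between pools.

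The pools of CB differed far more than the counting intervals. Upk1b stood at 708, 0.0682 and 1243 CPM in pools 1, 2 and 3. Upk3bl stood at 228, 3.19 and 883 CPM in the same order. Both uroplakin genes were thus near 0 in pool 2, where Upk1b was found in 1 of 78 cells and Upk3bl in 6.

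Among the secretory and detoxifying genes, Wfdc2 had 416, 67.3 and 1991 CPM in pools 1, 2 and 3. Cyp2f2 had 78.1, 0 and 1976 CPM there, and its cells numbered 12 of 69, 0 of 78 and 68 of 85. In pool 1, 84.7% of its counts came from 1 cell, and without that cell the level was 12.1 CPM. The 0 of 78 cells allows a share of up to 3.85%, taking 3 cells as the limit that a count of 0 allows, here and below. Cyp4a12a was found in pool 3 only, at 111 CPM in 14 of 85 cells, and its absence from the 69 cells of pool 1 allows a share of up to 4.35%.

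The surface and cytoplasmic genes had the same order of pools. Lypd2 had 29.6, 0 and 304 CPM, Ly6d 4.97, 0 and 115 CPM, and Serpinb11 40.9, 0 and 369 CPM in pools 1, 2 and 3. Anxa1 had 808, 63.6 and 1592 CPM, and of the 63.6 CPM in pool 2 most came from 1 cell with 6896 of the pool's 8394 counts of Anxa1. All 9 genes were therefore highest in pool 3, and pool 2 had 0 cells with Cyp2f2, Lypd2, Ly6d, Serpinb11 or Cyp4a12a. The median counts per cell were 804581, 1750784 and 1596814 in CB pools 1, 2 and 3, and the part of depth in these differences was not tested.

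**Figure D1:**
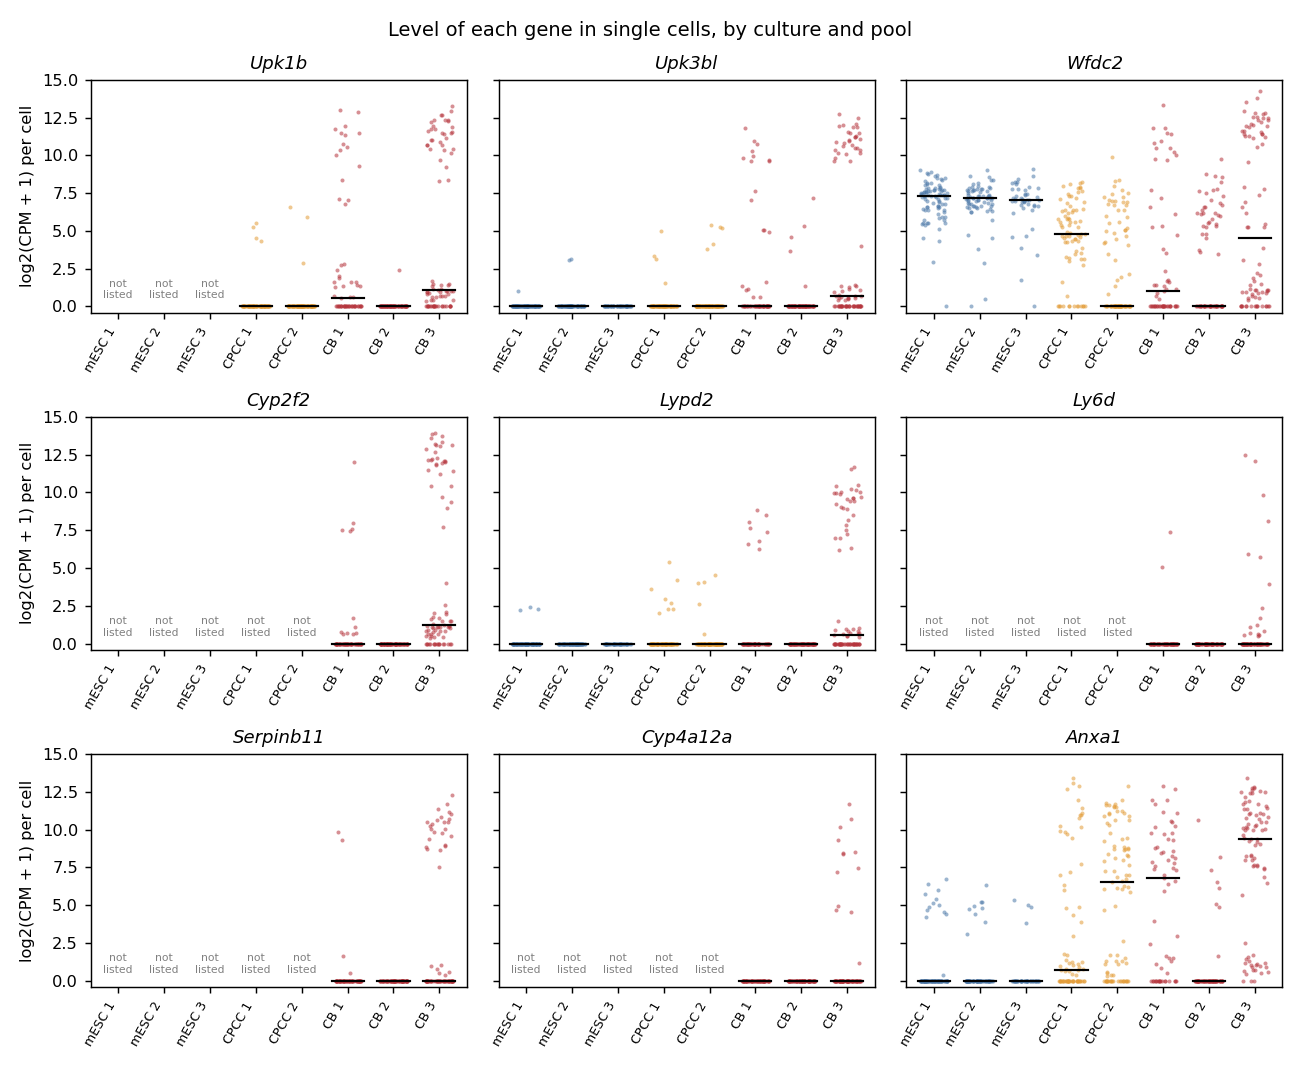
Each panel plots 1 gene as log2(CPM + 1) per cell, for cells with 100000 or more counts, by culture and pool. Dots are cells, black lines are medians, and pools whose table does not list the gene are marked. Upk1b, Cyp2f2 and Serpinb11 split CB cells into a low and a high group, with 0, 1 and 0 cells between 10 and 100 CPM, while Wfdc2 was spread over all 8 pools.

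Within cells, most of the genes were either nearly silent or abundant. Of the 219 CB cells with 100000 or more counts, Upk1b was above 0 in 94, with 45 under 10 CPM, 0 between 10 and 100 CPM, 9 between 100 and 1000 CPM and 40 at 1000 CPM or more. Cyp2f2 had 43, 1, 8 and 27 cells in the same ranges. Serpinb11 had 8, 0, 12 and 15. Anxa1 and Wfdc2 were more graded, with 10 and 36 cells between 10 and 100 CPM. The highest cell reached 19118 CPM for Wfdc2, 15997 CPM for Cyp2f2 and 11097 CPM for Anxa1. Ly6d and Cyp4a12a rested on few cells: 52.4% of the counts of Ly6d and 45.3% of those of Cyp4a12a came from 1 cell each, and without that cell their CB levels were 23.8 and 25.9 CPM.

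Detection of all 9 genes in CB was as follows, with a gene called present at 1 or more counts. Wfdc2 was found in 142 of 232 cells (61.2%, exact binomial interval 54.6 to 67.5%), Anxa1 in 136 (58.6%), Upk1b in 96 (41.4%), Cyp2f2 in 80 (34.5%) and Upk3bl in 78 (33.6%). Lypd2 was found in 54, Serpinb11 in 35, Ly6d in 19 and Cyp4a12a in 14. After every cell was thinned to 430000 counts, which left 210 CB cells, the shares were 52.9% for Wfdc2, 56.2% for Anxa1, 31.4% for Upk1b, 24.3% for Cyp2f2 and 27.6% for Upk3bl. At 10 or more counts, Upk1b remained in 49 cells, Upk3bl in 48 and Cyp2f2 in 35, so most cells with Cyp2f2 held fewer than 10 counts of it.

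The low counts of Cyp2f2 were mostly in pool 3. Of its cells with 100000 or more counts, 46 had fewer than 2 of the genes at 10 or more counts. Cyp2f2 was found in 33 of these 46, with at most 5 counts, and Upk1b in 26, with at most 5 counts. Lypd2 was found in 13 of these cells with at most 2 counts, Serpinb11 in 5 with at most 1, and Cyp4a12a in 0. Their mean counts were 0.0153% (Upk1b), 0.0135% (Upk3bl), 0.0149% (Cyp2f2), 0.0239% (Lypd2) and 0.00615% (Serpinb11) of the mean in the pool's cells with 5 or more of the genes. For Wfdc2 and Anxa1 the same value was 0.221% and 10.4%. In pool 2, which had no cell rich in these genes, 0 of 65 such cells had Cyp2f2 and 1 had Upk1b, and of 41 such cells in pool 1, 6 had Cyp2f2, with at most 2 counts, and 14 had Upk1b. The highest of these 14 had 2385 counts of Upk1b, and the mean over the 41 cells was 1.43% of that in the pool's rich cells. The source of the low counts was not tested.

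The genes were held together by the same cells. At 10 or more counts, 87 CB cells had none of the 9 genes and 78 had 1, 16 had 2, 7 had 3, 6 had 4 and 4 had 5, while 7 had 6, 12 had 7, 13 had 8 and 2 had all 9. The counts thus had a low point at 3 to 6 genes and a further rise at 7 and 8. This rise came from pool 3, with 10 cells at 7 genes and 13 at 8. Pool 1 had 2 and 0 such cells and showed no rise, and pool 2 had 0 cells with 4 or more genes. Of the 78 cells with a single gene, 40 had Anxa1, 36 had Wfdc2, 1 had Upk1b and 1 had Upk3bl. Cyp2f2, Ly6d, Serpinb11 and Cyp4a12a were at 10 or more counts in 0 of the cells that held 4 or fewer of the genes.

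At 1 or more counts, 57 CB cells had 5 or more of the genes, and at 10 or more counts 38 did, which was 16.4% of 232 (11.9 to 21.8%). The 38 cells were 8 of 69 in pool 1 (11.6%, 5.14 to 21.6%), 0 of 78 in pool 2 (0 to 4.62%) and 30 of 85 in pool 3 (35.3%, 25.2 to 46.4%). Without pool 3, 8 of the 57 cells remained. In mESC the most members found in a cell was 2 of the 4 listed, in 32 of 215 cells at 1 or more counts. In CPCC it was 3 of the 5 listed, in 8 of 175 cells. These cultures list fewer of the genes, so a count of 5 could be reached in CPCC only by a cell with every listed gene and in mESC by none.

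**Figure D2:**
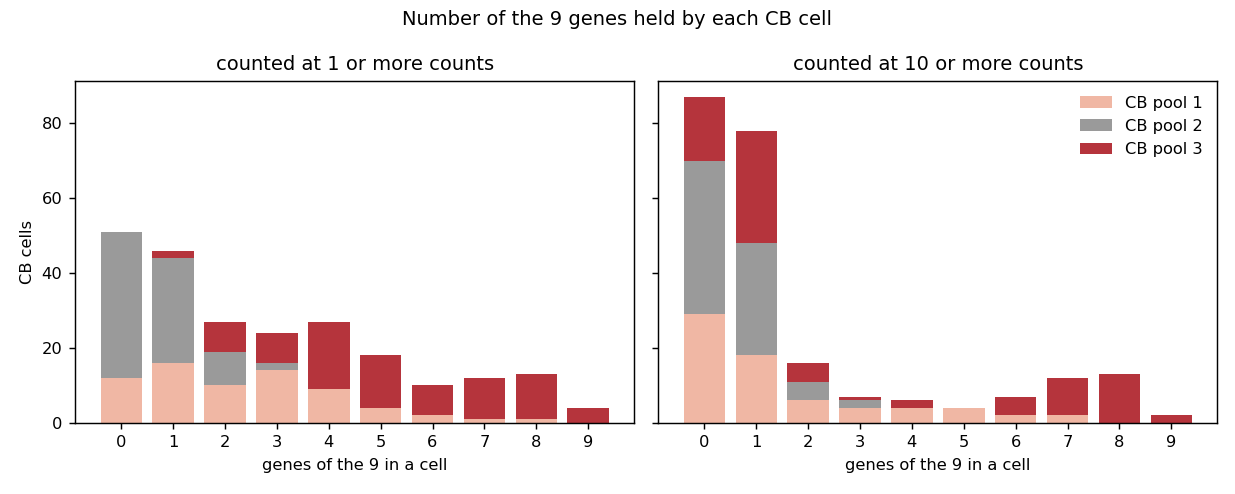
Bars count CB cells (y axis) by how many of the 9 genes they held (x axis), with pools stacked in colour, at 1 or more counts on the left and at 10 or more counts on the right. On the right, 87 cells had none and 78 had 1. A further group of 12 and 13 cells had 7 and 8, and pool 3 gave 10 and 13 of these.

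The 38 cells with 5 or more of the genes at 10 or more counts were chosen by the genes themselves, so their levels describe the group. Upk1b was present in all 38, at 130 CPM in the lowest, 2891 CPM in the median and 9899 CPM in the highest. Upk3bl was in 36, from 0 through a median of 1842 to 6714 CPM. The pair of uroplakin genes thus marked nearly every cell of the group.

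Wfdc2 was in 38 of 38, from 144 through 3526 to 19118 CPM, and Anxa1 in 38, from 523 through 2883 to 11097 CPM. Cyp2f2 was in 35, from 0 through 3983 to 15997 CPM, and its median over the 8 cells of pool 1 was 178 CPM, against 4454 CPM over the 30 of pool 3. Lypd2 was in 35, from 0 through 512 to 3358 CPM. These genes formed the common part of the group, whereas the others were held by a part of it.

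Serpinb11 was in 27, 2 of 8 in pool 1 and 25 of 30 in pool 3, and its median was 722 CPM. Cyp4a12a was in 12, all of them among the 30 of pool 3, and its highest value was 3305 CPM. Ly6d was in 9, 2 of 8 in pool 1 and 7 of 30 in pool 3, with 5618 CPM in the highest. Ly6d and Cyp4a12a were together in 2 cells, out of 9 with Ly6d and 12 with Cyp4a12a. All 12 cells with Cyp4a12a also had Upk1b, Upk3bl, Wfdc2, Cyp2f2, Lypd2 and Anxa1 at 10 or more counts.

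**Figure D3:**
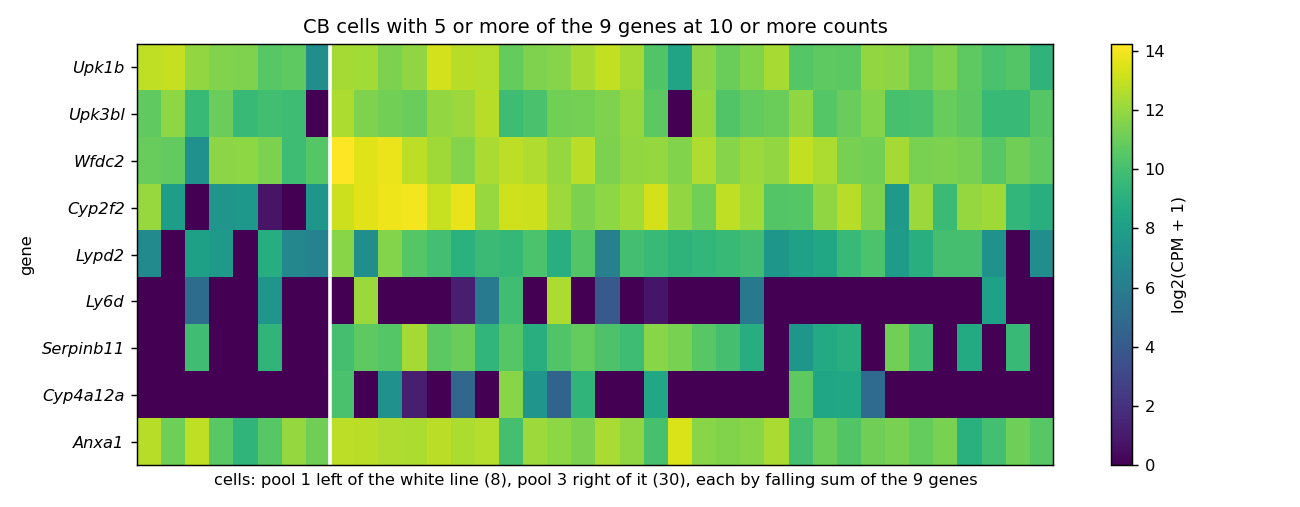
Colour gives log2(CPM + 1) of each gene (rows) in the 38 CB cells (columns) with 5 or more of the genes at 10 or more counts, 8 from pool 1 and 30 from pool 3. Upk1b, Wfdc2 and Anxa1 filled every column, Cyp2f2 was lower in pool 1, Cyp4a12a was in 12 cells of pool 3 and Ly6d in 9 cells.

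These cells held 92.9% of all CB counts of Upk1b, 96.9% of Upk3bl, 91.7% of Wfdc2, 99.97% of Cyp2f2 and 98.9% of Lypd2, but 77.5% of Anxa1. The 9 genes took 1.85% of the counts of the median cell of the group, from 0.406% to 5.16%. Over all pools, the group had a median of 1329314 counts and 6704 genes per cell, and the other 181 cells with 100000 or more counts had 1571269 counts and 6745 genes. Within pools the group had more genes, with medians of 7358 against 6181 in pool 1 and 6535 against 5615 in pool 3. Its cells were deeper in pool 1, at 1094337 against 843494 counts, and shallower in pool 3, at 1524146 against 1721109 counts. Mitochondrial transcripts took 6.56% and 4.92% of the counts, and the part of these differences in the results was not tested.

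Counts of Cyp4a12a were uncertain. Its transcript and that of Cyp4a12b, 78808 bases further along chromosome 4, were identical at 98.3% of 2394 aligned bases, and 48.9% of the 50-base windows of Cyp4a12a also occurred in Cyp4a12b. Of the cells, 14 had Cyp4a12a, 17 had Cyp4a12b and 13 had both, and 81.3% of the Cyp4a12a values above 0 were not whole numbers. The other fatty acid hydroxylases of the family did not share the pattern: Cyp4a10, Cyp4a14 and Cyp4a32 were not listed in CB, and Cyp4a31 was found in 1 cell.

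Across the 219 CB cells with 100000 or more counts, each pair of the genes was positively correlated. Cells of a pool were sequenced together and cells differ in depth, so the Spearman correlations (rho) of log2(CPM + 1) are given as a description and without p-values. Over the 36 pairs rho ran from 0.20 to 0.71 with a median of 0.53. Upk1b with Anxa1 had 0.71, Upk1b with Upk3bl 0.68, and Cyp2f2 with Lypd2 and Lypd2 with Serpinb11 0.67 each. Ly6d was the loosest member, with 0.20 to 0.38 over its 8 pairs, although Lypd2, its neighbour on chromosome 15, is of the same family. In pool 1, where 2 cells had Ly6d, its pairs ran from 0.13 with Cyp2f2 to 0.72 with Serpinb11, the highest pair of that pool. Within pool 3 the median over pairs was 0.63 (0.12 to 0.79), and within pool 1, where Cyp4a12a had no value above 0, it was 0.32 (0.03 to 0.72).

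Within the 38 cells taken alone, Upk1b and Upk3bl had a rho of 0.66 (0.72 in the 30 cells of pool 3). Upk1b and Anxa1 had 0.57 (0.63). Cyp2f2 had a rho of 0.58 with Lypd2, 0.55 with Serpinb11 and 0.54 with Wfdc2 (0.43, 0.45 and 0.40 in pool 3). Lypd2 with Serpinb11 had 0.39, but 0.12 in pool 3. Upk1b had a rho of 0.16 with Cyp2f2, 0.13 with Lypd2, 0.18 with Serpinb11 and 0.24 with Wfdc2. Upk3bl had 0.36 with Cyp2f2, 0.39 with Lypd2, 0.17 with Serpinb11 and 0.45 with Wfdc2. In pool 3 the values of Upk1b and Upk3bl were 0.15 and 0.17 with Cyp2f2, 0.25 and 0.32 with Lypd2, 0.24 and 0.06 with Serpinb11, and 0.34 and 0.37 with Wfdc2.

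**Figure D4:**
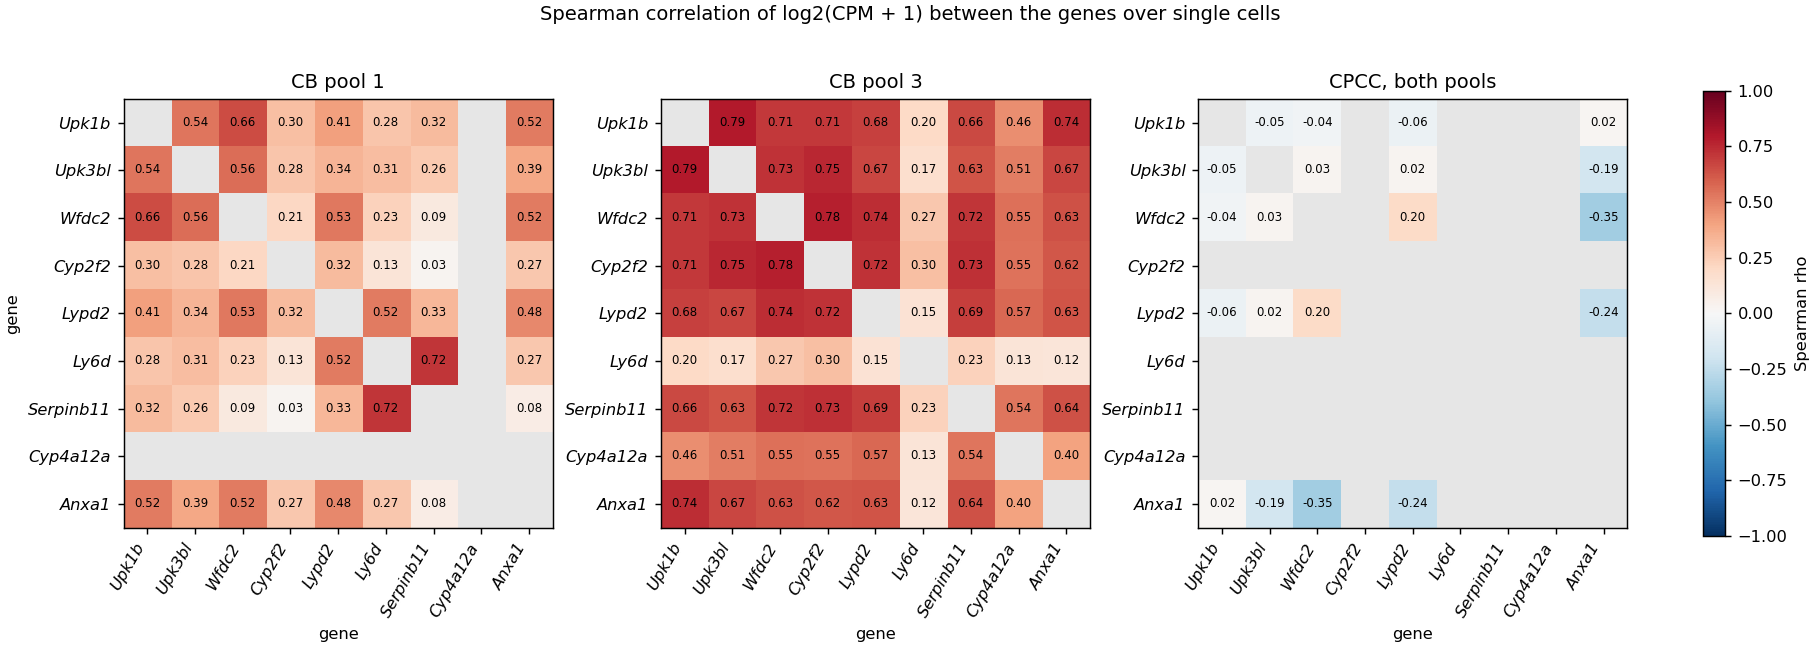
Squares give Spearman rho of log2(CPM + 1) for each pair of genes over cells of CB pool 1, CB pool 3 and CPCC. Grey marks a gene without values above 0 or not listed. Pool 3 had 0.79 for Upk1b with Upk3bl and low values for Ly6d, while CPCC pairs stayed between -0.35 and 0.20.

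CPCC and mESC cells took no part in choosing the genes. In CPCC, Upk1b had 2.29 CPM in 7 of 175 cells, Upk3bl 0.696 CPM in 9 and Lypd2 0.678 CPM in 13. There were 0 cells with both Upk1b and Upk3bl, which says little with so few cells of each. Wfdc2 had 40.2 CPM, with 59.4 and 22.3 CPM in pools 1 and 2, and was found in 106 cells. Anxa1 had 726 CPM, with 773 and 682 CPM in pools 1 and 2, and was found in 115 cells. In mESC, Wfdc2 had 169 CPM in 203 of 215 cells, with 165, 166 and 176 CPM in the 3 pools. Anxa1 had 4.25 CPM in 26 mESC, Upk3bl 33 counts in 3 and Lypd2 15 counts in 3.

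Wfdc2 was highest in level in CB and in share of cells in mESC. Thinned to 430000 counts, 191 of 193 mESC (99.0%), 91 of 157 CPCC (58.0%) and 111 of 210 CB cells (52.9%) had it. Its median over the mESC, CPCC and CB cells with 100000 or more counts was 145, 17.7 and 2.05 CPM, while the highest cell had 546, 952 and 19118 CPM. Nearly all mESC thus had a moderate level of Wfdc2, and in CB a minority of cells held a level that no mESC reached.

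In CPCC, Wfdc2 and Anxa1 overlapped in part. At 1 or more counts 58 cells had both, out of 106 with Wfdc2 and 115 with Anxa1, and at 10 or more counts 26 had both, out of 93 and 79. Their rho over 169 cells was -0.35, although it was 0.04 within pool 1 and -0.51 within pool 2. Wfdc2 followed the mean of the 20 general epithelial genes, such as Epcam and Cdh1, with a rho of 0.79 (0.56 and 0.82 in pools 1 and 2). Its rho was 0.53 (0.11 and 0.66) with pluripotency genes and -0.45 (-0.24 and -0.45) with fibroblast genes, and some of the epithelial genes, Epcam, Cdh1 and Elf3 among them, were also present in mESC, at 56.9, 95.4 and 153 CPM. Anxa1 followed fibroblast genes, such as Col1a1 and Dcn, with 0.60 (0.44 and 0.65). The rho of Anxa1 with general epithelial genes was -0.41 (-0.07 and -0.46) and with pluripotency genes -0.63 (-0.48 and -0.58). In mESC, Wfdc2 had a rho of 0.17 with general epithelial genes, and of 0.17, -0.0018 and 0.46 in pools 1, 2 and 3. The 10 pairs of members in CPCC had a median rho of -0.04.

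Summed over cells, CB was compared with each of the other cultures by the log2 ratio of CPM + 1, with 4-fold as the limit for a call and no test, since each culture is 1 sample. Against mESC, 4 of the 4 genes listed in both tables were at least 4-fold higher in CB, where 10.8% of all 19855 genes were, and 0 were 4-fold lower, where 3.04% of all genes were. Since CB cells chose the genes, nothing is read from the count. The log2 ratio was 8.58 for Upk3bl, 7.34 for Anxa1, 7.02 for Lypd2 and 2.49 for Wfdc2. Without CB pool 3 that of Wfdc2 was 0.09, below the limit, and the others were 6.12, 5.85 and 3.33. The ratio of Upk3bl and Lypd2 rests on 33 and 15 counts in mESC.

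Against CPCC, 4 of 5 genes were at least 4-fold higher in CB, where 4.74% of all 20995 genes were, and 0 were 4-fold lower, against 2% of all genes. The log2 ratio was 7.95 for Upk3bl, 7.65 for Upk1b, 6.34 for Lypd2 and 4.53 for Wfdc2. Without CB pool 3 these ratios were 5.49, 6.12, 2.65 and 2.13, so all stayed past the limit with Wfdc2 close to it. Anxa1 stood at 851 against 726 CPM, a log2 ratio of 0.23, which ran from -1.26 to 0.90 when each CB pool was left out in turn. Its direction between these cultures thus depended on the pool. The median gene with at least 1 CPM in the higher culture stood at 0.29 in CB against mESC and 0.22 against CPCC, and TMM scaling moved these to 0.11 and 0.04.

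Between the cultures that took no part in the choice, Anxa1 was at least 4-fold higher in CPCC than in mESC, with a log2 ratio of 7.11, and was the only 1 of the 4 genes listed in both, against 5.21% of all 20272 genes. Wfdc2 was at least 4-fold lower in CPCC, with a log2 ratio of -2.04, against 1.04% of all genes. It lay close to the limit, and the call was lost without CPCC pool 2 (-1.49), when the CPM of cells were averaged (-1.55) and when 10 CPM were added before taking logs (-1.83). Upk3bl at 0.63 and Lypd2 at 0.69 passed neither limit, but both passed the upper one with a pseudocount of 0.1 CPM.

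The name of the gene set was checked against markers of bladder and airway lining, counting a marker as common where more than 50% of the 38 cells had 10 or more counts. The share of all genes that pass this cut is not given here. A count of common genes, here and below, is therefore a description and no measure of enrichment. Among the uroplakin family, Upk2 was in 22 of the 38 cells, with a median of 60.2 CPM, Upk3a in 7, Upk3b in 6 and Upk1a in 2. Upk1a, the partner of Upk2 in the bladder plaque, ran the other way between cultures, with 0.467 CPM in CB against 25.3 in CPCC and 13.8 in mESC. Of the 11 urothelial genes 2 were common, Upk2 and the forkhead factor Foxa1, which was in 29 cells. Krt5 and Psca were in 15 each and Krt20 in 14.

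Of 14 secretory airway genes 8 were listed in CB and 1 was common, the carbonyl reductase Cbr2, in 27 cells. The summed level of the list had a median of 385 CPM in the group and 0 in the other cells, and that of the urothelial list 694 CPM and 0. The epithelial mucin Muc1 was in 17 cells, the antimicrobial lectin Reg3g in 5 and Cyp2a5 in 2, and the surfactant protein Sftpd of the lung list was in 5. The secretoglobins Scgb1a1 and Scgb3a2 and the mucins Muc5b and Muc5ac were not listed in CB, Scgb3a1 was found in 1 cell outside the group, and Nkx2-1, the lung lineage factor, had 0 counts in all 38 cells, which allows a share of up to 7.89%. With no value for these secretoglobins and no count of Nkx2-1, the markers do not bear out an airway name for the cells, and none is given here. The lung and alveolar list had 0 of 8 common genes and the ciliated airway list 0 of 6. Ciliated genes were high in a few cells, with Ccdc153 at 1679 CPM in the highest of 2 cells.

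General epithelial genes were the widest company of the 9 genes. Of 20, 17 were common in the 38 cells and 0 in the other CB cells, and their summed level had a median of 8858 CPM (2522 to 15564) against 18.9 CPM (0 to 16046). The adhesion molecule Epcam, the keratins Krt7 and Krt8 and the protease inhibitor Spint2 were in all 38 cells. Of 14 stratified epithelial genes, 6 were common, among them Krt4 in 33 cells with a median of 1654 CPM and Krt15 in 36 with 1500 CPM. The basal-cell factor Trp63 was in 8 and Krt13, a partner of Krt4, in 6. Neither mESC nor CPCC listed Krt4 or Krt15.

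Mesothelium shares uroplakin genes, so its markers were counted too. Of 13, 1 was common, the surface protein Msln, in 33 cells, and Muc16, which binds it, was in 17 of the 38 cells and in 0 others. The summed level of the list had a median of 836 CPM in the group and 53.5 CPM in the other cells. Wt1 and Cldn15 were at 0 in all 38, and Upk3b was in 6. Fibroblast genes had 0 of 10 common genes in the group and 5 of 10 in the other cells, with summed medians of 51.0 and 2428 CPM. Endothelial, cardiomyocyte and endoderm lists had 0 common genes in the group and in the other cells, with summed medians of 0, 0 and 1.86 CPM in the group and 0.362, 0 and 2.25 CPM in the others. Of 10 pluripotency genes, 2 were common in the group, Klf4 in 31 cells and Sox2 in 28, and 1 in the other cells, Klf4. Sox2 was at 10 or more counts in 20.4% of the other cells. The summed medians of the list were 186 and 107 CPM, and 5 of its genes had 0 counts in all 38 cells. Whether other cell types contributed RNA to single chambers was not tested.

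**Figure D5:**
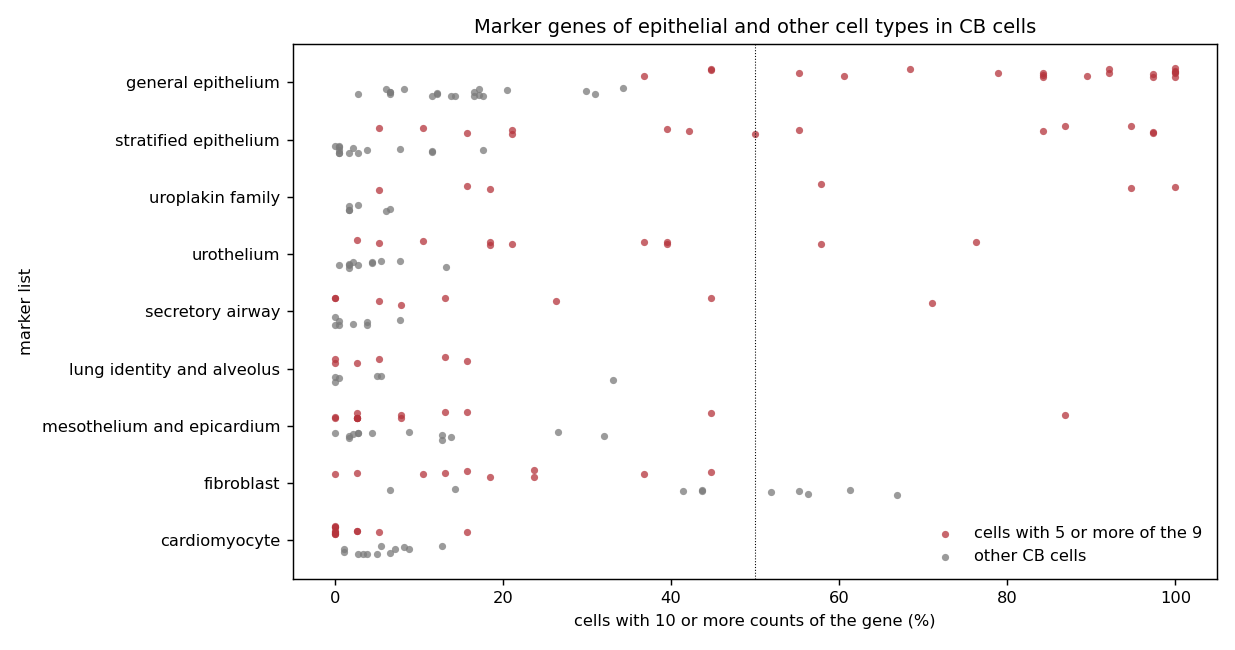
Each dot is a gene of a marker list, placed by the percentage of cells with 10 or more counts of it, red for the 38 CB cells with 5 or more of the 9 genes and grey for the other 181. The dotted line marks 50%; 17 of 20 general epithelial genes lay to its right in red and none in grey, and the uroplakin row includes Upk1b and Upk3bl, which chose the cells.

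Relatives of the 9 genes shared the cells unevenly, and the counts that follow include Anxa1, Serpinb11, Lypd2 and Wfdc2, which helped to choose the cells. In the annexin family, 7 of 12 genes were common in the 38 cells and 3 in the others, and Anxa8, a gene of stratified epithelia, was in 35 with a median of 953 CPM against 0 in other cells. Anxa5 and Anxa6 had medians of 377 and 5.06 CPM against 321 and 135 CPM. Of 14 clade B serpins 4 were common, Serpinb5, Serpinb6a, Serpinb8 and Serpinb11, and Serpinb10 and Serpinb12 were in 7 and 3 of the 38 cells. In the Ly6 family 2 of 16 were common, Lypd2 and Ly6e, while Slurp1 and Lypd3 were in 8 and 7 of the 38 cells and had 100% of their CB counts there. Among WAP domain proteins, Wfdc1 was in 21 and Slpi, an inhibitor secreted by airway glands, in 0.

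The genes most like the 9 over CB cells were sought among 14349 others, by Spearman correlation with the mean of the standardized log2(CPM + 1) of the 9. Among the closest were the calcium-binding S100a11 and S100a6, both at 0.70, followed by Gm12854 (0.67, a processed pseudogene whose reads may come from a parent gene), S100a14 (0.67), F3 (0.67, tissue factor), Fxyd3 (0.66), Perp (0.66, a desmosome-associated protein), Rab25 (0.66, an epithelial vesicle regulator) and Anxa8 (0.66). Within pool 1 the rho of these genes ran from 0.56 to 0.70 and within pool 3 from 0.65 to 0.79. In pool 2, which had none of the 38 cells, it ran from -0.02 to 0.39, and none could be computed for S100a14. S100a14 was in 33 of the 38 cells, with a median of 126 CPM against 0 in other cells. S100a11 and S100a6 were also present elsewhere, at 104 and 64.9 CPM in the median of other cells. At the other end were Peg10 (-0.53), Mest (-0.49), both imprinted genes, and the division gene Top2a (-0.47).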

How the data were processed

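Polyadenylated RNA of single cells was profiled in 3 samples, mESC, CPCC and CB. Per the labels and the methods, the authors aligned reads to GRCm38 (mm10) with STAR 2.7 in Partek Flow, and the deposited tables hold unscaled values for 622 cells, the number of libraries the study names. The mESC and CB tables hold estimated counts (26.4% and 27.4% of values above 0 were over 0.001 from a whole number), and the deposited CPCC table holds whole counts. The counting model and use of strand were not given in the sources used here. Estimated counts were rounded only for thinning, scaling factors and intervals. In CPCC, 208 rows without a gene, 23 symbols turned into dates (0.139% of counts) and 2 empty columns that matched no sample were left out. Columns were linked to samples by the culture each table is named for, and pools by the column prefix.

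Counts were summed per sample for CPM and log2(CPM + 1). Calls were set at 4-fold. Cells with 100000 or more counts gave per-cell CPM and correlations (219 CB, 169 CPCC, 203 mESC), and thinning to 430000 counts left 210, 157 and 193. No doublet caller was run. Python 3.11.15, pandas 2.3.3, scipy 1.17.1, edgeR 4.0.16 (TMM) and DESeq2 1.42.0 (size factors) were used, with GENCODE M21 and RefSeq sequences. Scripts were tested on simulated data. Named genes were the 9 genes, the marker lists and the 10 genes most alike, of which 1 is not reported here. The genes and lists were chosen with earlier results of these data known. With 1 sample per group no test was made. Alternatives were other scalings, pseudocounts, filters, depths and left-out pools.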

Additional observations from a re-analysis of the deposited data

How the results depend on the processing

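No paired analysis was possible because each culture is 1 sample, column names carry no replicate number and no test between cultures was made. The count of genes at least 4-fold higher stayed at 4 of 4 in CB against mESC and 4 of 5 in CB against CPCC under other scalings, pseudocounts, depths and filters. Without CB pool 3 it was 3 and 4. In CPCC against mESC it was 1 in all settings but a pseudocount of 0.1 CPM, where it was 3. The number of CB cells with 5 or more of the 9 genes, 57 at 1 or more counts, was 8 without CB pool 3, 49 without pool 1 and 57 without pool 2. It was 38 at 5 or more and at 10 or more counts, 41 after thinning, 84 for 4 or more genes and 39 for 6 or more. The lower call of Wfdc2 in CPCC against mESC was lost with the same weight for every cell, a pseudocount of 10 CPM or without CPCC pool 2. No call turned its direction, and the uncalled ratio of Anxa1 in CB against CPCC ran from -1.26 to 0.90 over left-out pools. The ratios of the genes rare in mESC moved with the pseudocount: that of Upk3bl in CB against mESC ran from 5.41 to 11.08. The cause of these differences was not tested beyond the alternatives' own construction. The mESC values of Upk3bl and Lypd2 rest on 33 and 15 counts, and the level of Ly6d and Cyp4a12a rests on few cells.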
